A study of Mus musculus with 18 samples.

Results

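The BCL2 family decides whether the outer membrane of the mitochondrion stays intact. Its mRNAs were followed here in splenic B cells through 10 genes, listed by name with no threshold on a measured value although earlier results of these data were known, and these 10 stand among 28096 genes in the count tables. The pro-survival members were *Bcl2*, *Bcl2l1* (BCL-XL), *Mcl1* and *Bcl2a1b* (A1). The BH3-only members, which start cell death, were *Bcl2l11* (BIM), *Bbc3* (PUMA), *Pmaip1* (NOXA), *Bmf*, *Bik* and *Bid*. The libraries came from wild-type (WT) mice and from mice that lack *Ubqln1* in all cells because exon 2 was deleted in embryonic stem cells, both of strain C57BL/6 N and at least 8 weeks old. B cells were purified from spleen and kept for 4 hr without stimulus (resting), with F(ab)2 fragments of anti-IgM at 10 μg/mL, which crosslink the B cell receptor (BCR), or with LPS of *E. coli* K12 at 20 μg/mL, a ligand of Toll-like receptor 4. Each of the 6 groups held 3 libraries that the labels call biological replicates, and wells in triplicate had been pooled before RNA was made. The p-values below measure the spread between these libraries.

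In healthy cells the pro-survival proteins hold the pore formers BAX and BAK in check, and they also bind BH3-only proteins. When BH3-only proteins outnumber them, BAX and BAK open the outer mitochondrial membrane, cytochrome c escapes and caspases are activated. Mature B cells depend on several pro-survival members, BIM is the BH3-only protein best known for removing B cells after BCR signals, and NF-κB is a known activator of *Bcl2l1* and *Bcl2a1* transcription. All of these proteins are also controlled after transcription, which mRNA counts do not show.

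Promoter windows are shown for 4 of the 6 members whose mRNA rose with both stimuli in both genotypes, those with a match to a motif searched. Each runs from 250 bases before to 50 bases after a RefSeq start site (GRCm38.p6) and is printed 5′ to 3′ on the strand of the gene. Capitals mark matches, on either strand, to patterns searched for NF-κB (κB consensus), FOXO (TGTTTAC) and AP-1 (TGANTCA, with N any base). The *Bcl2a1b* match has A at N, and whether AP-1 binds that form was not tested. The *Bcl2l1* window lies at chr2:152830668-152830967 on the minus strand, and the *Bcl2a1b* window at chr9:89199023-89199322 on the plus strand. The *Bcl2l11* window lies at chr2:128125788-128126087 and the *Bbc3* window at chr7:16309333-16309632, both on the plus strand.
Bcl2l1, κB in capitals: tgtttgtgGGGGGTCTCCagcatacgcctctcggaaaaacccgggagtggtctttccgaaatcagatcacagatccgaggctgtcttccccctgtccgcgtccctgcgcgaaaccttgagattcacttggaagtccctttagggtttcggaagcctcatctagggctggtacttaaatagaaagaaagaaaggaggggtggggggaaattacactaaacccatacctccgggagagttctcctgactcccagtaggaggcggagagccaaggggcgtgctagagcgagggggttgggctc
Bcl2a1b, AP-1 in capitals: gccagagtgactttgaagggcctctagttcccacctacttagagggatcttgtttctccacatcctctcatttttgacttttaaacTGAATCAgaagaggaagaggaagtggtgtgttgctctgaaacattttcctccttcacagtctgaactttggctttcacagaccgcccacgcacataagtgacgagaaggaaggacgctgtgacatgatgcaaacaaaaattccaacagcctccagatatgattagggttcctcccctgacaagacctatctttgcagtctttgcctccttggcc
Bcl2l11, FOXO in capitals (reverse strand): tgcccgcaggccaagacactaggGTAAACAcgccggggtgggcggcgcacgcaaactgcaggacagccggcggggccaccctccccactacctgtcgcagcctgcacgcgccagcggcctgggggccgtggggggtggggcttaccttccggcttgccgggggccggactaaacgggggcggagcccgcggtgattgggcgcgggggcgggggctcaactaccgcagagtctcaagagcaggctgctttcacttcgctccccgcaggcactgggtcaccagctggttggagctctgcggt
Bbc3, κB in capitals (2 overlapping matches): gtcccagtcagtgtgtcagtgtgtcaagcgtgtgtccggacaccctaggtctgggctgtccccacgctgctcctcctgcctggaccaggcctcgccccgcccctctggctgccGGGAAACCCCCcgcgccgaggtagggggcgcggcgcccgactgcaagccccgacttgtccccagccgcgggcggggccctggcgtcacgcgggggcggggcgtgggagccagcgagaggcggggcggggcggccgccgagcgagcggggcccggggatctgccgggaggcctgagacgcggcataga

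RefSeq windows were found for 8 of the 10 members, 15 windows in all, and none was used for *Pmaip1* and *Bik*. *Bcl2l1*, *Bcl2l11* and *Bbc3* have further windows at other start sites, and those of *Bcl2l1* and *Bcl2l11* held no match to a motif searched. The κB consensus matched 3 of the 15 windows, those of *Bcl2l1* and *Bbc3* shown above and 1 of *Bmf*, where 8.46% of 32851 mouse promoter windows of the same length held a match. The FOXO motif stood in the *Bcl2l11* window shown and in another *Bbc3* window (3.65% of all windows). The loose AP-1 pattern stood in the *Bcl2a1b* window (7.81%), and the E-box CACGTG in another *Bbc3* window (7.15%). *Bmf*, with a κB match, was not called higher with either stimulus. These matches describe letters in a window and no binding was measured.

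Depth ranged from 15368941 to 41072854 counts per library (median 23257531). After scaling by TMM factors, which hold the bulk of genes near no change, the median over tested genes moved by at most 0.02 on the log2 scale in the stimulus comparisons. Levels and folds are therefore relative to the library, and a change in total mRNA per cell cannot be seen in them. *Ubqln1* itself was between 62.3 and 92.0 RPKM (reads scaled to exon length and to library size, the latter adjusted by TMM factors) in WT libraries and between 24.8 and 34.8 RPKM in *Ubqln1*-/- libraries. The counts are per gene, so which exons gave the remaining reads was not seen. Its log2 fold change between genotypes was −1.27 at rest, −1.42 after anti-IgM and −1.44 after LPS (edgeR adjusted p = 6.68e-08, 1.1e-08 and 9.89e-09). Of the B cell markers, *Cd79a* and *Cd79b*, which encode the signal chains of the BCR, had means of 1010 and 1820 RPKM in resting WT cells, 295 and 654 after anti-IgM, and 655 and 1120 after LPS. *Ms4a1* (CD20) had means of 394, 164 and 357 RPKM, and these 3 genes, *Cd22* and *Pax5* were each called lower with anti-IgM in both genotypes. T cell, NK cell and neutrophil lists summed to at most 0.771, 2.51 and 2.21 RPKM in any library. The monocyte and macrophage list summed to 10.8 to 17.0 RPKM in resting and 4.49 to 9.2 RPKM in stimulated libraries, and the dendritic cell list (mostly *Zbtb46* and *Flt3*) to 3.21 to 5.08 RPKM at rest, 6.04 to 8.27 after anti-IgM and 11.7 to 19.8 after LPS. The 4 plasma cell markers (*Jchain*, *Prdm1*, *Sdc1*, *Xbp1*) summed to 159 to 272 RPKM at rest, 159 to 260 after anti-IgM and 104 to 199 after LPS in WT libraries, and to 129 to 143, 133 to 141 and 89.2 to 93.8 RPKM in *Ubqln1*-/- libraries. *Sdc1* fell with LPS, with log2 fold changes of −2.52 in WT and −2.34 in *Ubqln1*-/- cells (edgeR adjusted p = 3.47e-08 and 1.04e-07). *Jchain* was at 141 to 186 RPKM in the WT libraries of replicate 3 and at 56.8 to 90.4 RPKM in the other WT libraries. None of these 4 was called between genotypes by edgeR, and no member gained a genotype call when any single library was left out. The part of these marker shifts in the results below was not tested. In such bulk libraries, fewer cells of a type and less RNA per cell cannot be told apart.

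A gene was called where its Benjamini-Hochberg adjusted p, over all 14161 genes that passed the expression filter, was under 0.05 in the quasi-likelihood test of edgeR. Of the 10 members, 9 were tested. *Bik*, a BH3-only gene at chr15:83526790-83544635, had 0 to 5 reads per library and group means of 0.0494 to 0.138 RPKM, so no response of it was detectable at this depth. Stimulation changed a large part of the transcriptome. With anti-IgM, 32.4% of tested genes were called higher and 32.2% lower in WT cells, and 32.9% and 32.4% in *Ubqln1*-/- cells. With LPS, 31.2% were called higher and 30.1% lower in WT cells, and 30.6% and 30.2% in *Ubqln1*-/- cells.

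Against that background, anti-IgM raised 6 and lowered 3 of the 9 tested members in WT cells, and again 6 and 3 in *Ubqln1*-/- cells. LPS raised 6 and lowered 0 in each genotype. The median log2 fold change of the 9 members was 0.53 with anti-IgM and 0.79 with LPS in WT cells (all tested genes −0.01 and −0.01), and 0.61 and 0.72 in *Ubqln1*-/- cells (all tested genes −0.02 and −0.02). When a log2 fold change over 1 in size was also asked for, anti-IgM raised 3 members in each genotype (*Bcl2a1b*, *Bcl2l1* and *Bcl2l11*) and lowered *Bcl2*, where 9.49% of all tested genes were higher and 11.1% lower in WT cells, and 9.60% and 10.7% in *Ubqln1*-/- cells. By the same rule LPS raised 4 members in each genotype (*Bcl2l1*, *Bcl2a1b*, *Bbc3* and *Bid*) and lowered 0, where 7.84% of all tested genes were higher and 7.94% lower in WT cells, and 7.82% and 8.12% in *Ubqln1*-/- cells. At the thresholds of the study (adjusted p under 0.001 and log2 fold change over 2 in size), anti-IgM raised *Bcl2a1b* alone in each genotype and lowered 0 members, where 1.72% of all tested genes were higher and 2.04% lower in WT cells, and 1.79% and 1.85% in *Ubqln1*-/- cells. LPS then raised *Bcl2l1* and *Bcl2a1b* and lowered 0 members, where 1.36% of all tested genes were higher and 0.445% lower in WT cells, and 1.22% and 0.523% in *Ubqln1*-/- cells. The anti-IgM and LPS comparisons of a genotype share their 3 resting libraries.

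**Figure D1:**
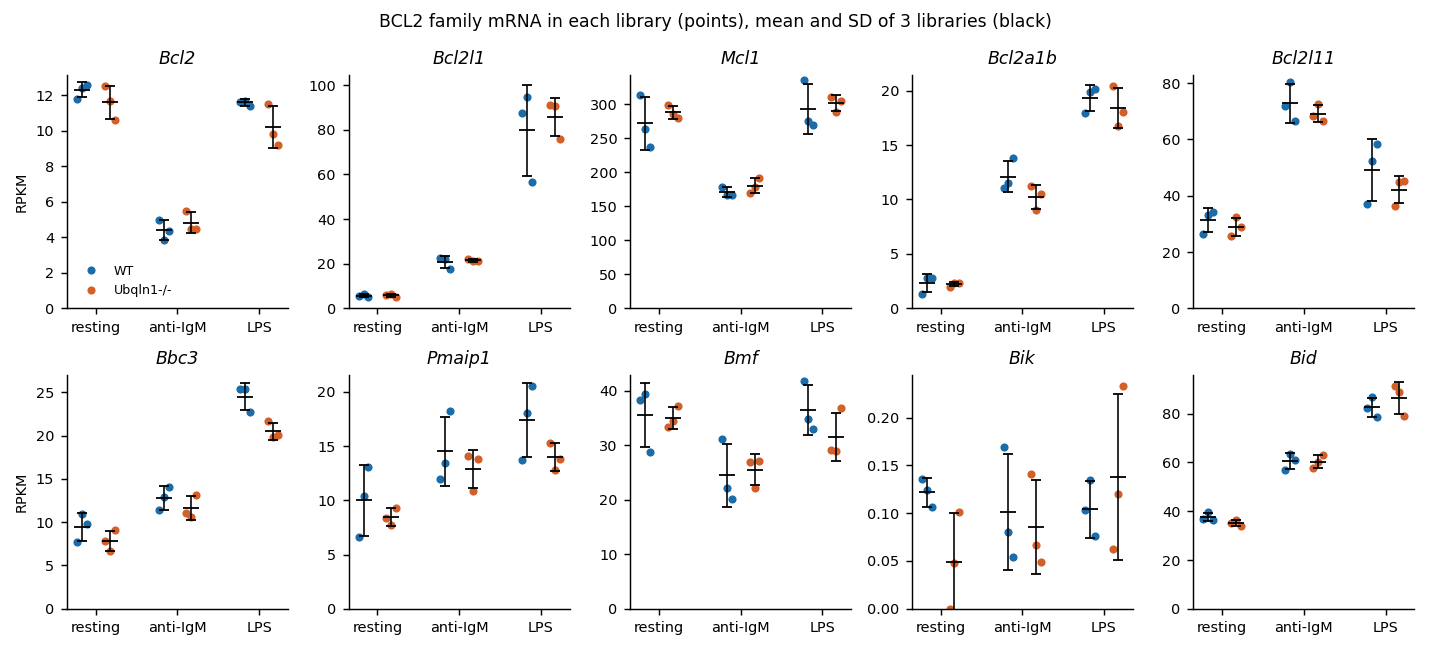
Level of each member in RPKM (linear axes from 0, a different scale for each gene) in resting, anti-IgM and LPS libraries, with WT in blue and Ubqln1-/- in orange. Points are single libraries and black bars the mean and SD of 3. Bcl2l1 stands between 56.7 and 94.9 RPKM with LPS against 4.94 to 6.64 RPKM at rest, while Bcl2 lies between 3.87 and 5.51 RPKM with anti-IgM against 10.6 to 12.6 RPKM at rest.

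*Bcl2l1* encodes BCL-XL, a pro-survival protein that activated lymphocytes make. Its gene lies at chr2:152758732-152833803 on the minus strand. In replicates 1, 2 and 3 of WT cells it was at 5.80, 6.64 and 4.94 RPKM at rest, 22.5, 22.0 and 17.8 RPKM with anti-IgM, and 87.5, 94.9 and 56.7 RPKM with LPS. The *Ubqln1*-/- levels were 6.03, 6.55 and 5.20 RPKM at rest, 22.1, 21.3 and 21.2 RPKM with anti-IgM, and 90.9, 90.6 and 76.0 RPKM with LPS. Coordinates are those of GRCm38.p6. The 3 conditions did not overlap in either genotype, and the WT library of replicate 3 was the lowest of the 6 LPS libraries. With LPS *Bcl2l1* rose 13.7-fold in WT cells (log2 fold change 3.78, SE 0.17, edgeR adjusted p = 1.66e-10) and 14.5-fold in *Ubqln1*-/- cells (edgeR adjusted p = 1.51e-10). Anti-IgM raised it 3.58-fold in WT cells (log2 fold change 1.84, SE 0.17, edgeR adjusted p = 7.67e-08) and 3.63-fold in *Ubqln1*-/- cells (edgeR adjusted p = 6.34e-08). Between the stimuli, LPS cells held 3.83 times as much *Bcl2l1* mRNA as anti-IgM cells in WT and 3.99 times in *Ubqln1*-/- cells (edgeR adjusted p = 4.63e-08 and 3.85e-08).

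*Bcl2a1b* encodes A1, a short-lived pro-survival protein of lymphoid and myeloid cells, and lies at chr9:89199273-89207838. In WT cells it was at 1.34, 2.75 and 2.80 RPKM at rest, 11.1, 11.5 and 13.8 RPKM with anti-IgM, and 17.9, 19.9 and 20.1 RPKM with LPS. *Ubqln1*-/- cells held 1.98, 2.34 and 2.36 RPKM at rest, 11.2, 9.02 and 10.5 RPKM with anti-IgM, and 20.4, 16.7 and 18.0 RPKM with LPS. No resting library reached a stimulated one, and no anti-IgM library reached an LPS one. Resting values rest on 16 to 54 reads per library and LPS values on 251 to 599 reads. LPS raised *Bcl2a1b* 8.13-fold in WT and 8.20-fold in *Ubqln1*-/- cells (edgeR adjusted p = 2.27e-09 and 2.39e-09), and anti-IgM raised it 5.10-fold and 4.57-fold (edgeR adjusted p = 1.21e-08 and 2.65e-08). LPS exceeded anti-IgM by 0.67 on the log2 scale in WT cells and 0.84 in *Ubqln1*-/- cells (edgeR adjusted p = 0.00186 and 0.000343).

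*Bcl2a1b*, *Bcl2a1d* and *Bcl2a1a* share much of their sequence, so the split of reads among them is uncertain. Of the 50-base windows of the *Bcl2a1b* transcript, 79.2% also occur in other transcripts, 57.6% in *Bcl2a1d*, 41.1% in *Bcl2a1a* and 0.26% in *Bcl2a1c*. *Bcl2a1d* rose by 2.26 on the log2 scale with anti-IgM and by 3.85 with LPS in WT cells (edgeR adjusted p = 6.19e-05 and 7.43e-08), and by 2.59 and 3.93 in *Ubqln1*-/- cells (edgeR adjusted p = 9.67e-06 and 6.76e-08). *Bcl2a1c*, which shares few windows with *Bcl2a1b*, rose by 1.72 and 2.69 in WT cells (edgeR adjusted p = 0.00209 and 1.73e-05). It rose by 2.06 and 3.42 in *Ubqln1*-/- cells (edgeR adjusted p = 0.000777 and 2.85e-06). *Bcl2a1a* had 1 to 11 reads per library and was not tested.

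*Bcl2*, the founding pro-survival gene of the family, lies at chr1:106538176-106714290. Its 3 WT levels were 11.8, 12.4 and 12.6 RPKM at rest, 4.98, 3.87 and 4.37 RPKM with anti-IgM, and 11.6, 11.7 and 11.4 RPKM with LPS. In *Ubqln1*-/- cells they were 12.5, 11.7 and 10.6 RPKM at rest, 5.51, 4.47 and 4.47 RPKM with anti-IgM, and 11.5, 9.80 and 9.20 RPKM with LPS. The anti-IgM libraries stood apart below all others, resting and LPS libraries of *Ubqln1*-/- cells overlapped, and the WT LPS libraries lay just below the resting ones. Anti-IgM lowered *Bcl2* 2.79-fold in WT cells (log2 fold change −1.48, SE 0.10, edgeR adjusted p = 3.98e-09) and 2.41-fold in *Ubqln1*-/- cells (−1.27, SE 0.10, edgeR adjusted p = 1.71e-08). With LPS the log2 fold change was −0.08 in WT cells (95% interval −0.29 to 0.12, edgeR adjusted p = 0.474) and −0.19 in *Ubqln1*-/- cells (−0.40 to 0.02, edgeR adjusted p = 0.102). With the replicate number as a block, the *Ubqln1*-/- value was −0.20 with an edgeR adjusted p of 0.0284, and without replicate 1 of the *Ubqln1*-/- LPS libraries it was −0.28 (edgeR adjusted p = 0.032). LPS cells held 2.63 times as much *Bcl2* mRNA as anti-IgM cells in WT and 2.10 times in *Ubqln1*-/- cells (edgeR adjusted p = 1.45e-08 and 3.58e-07).

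*Mcl1*, at chr3:95656944-95663179, encodes a pro-survival protein with rapid turnover and was the most abundant member in each of the 6 groups. WT levels were 314, 264 and 237 RPKM at rest, 179, 167 and 166 RPKM with anti-IgM, and 335, 275 and 270 RPKM with LPS. *Ubqln1*-/- levels were 299, 286 and 280 RPKM at rest, 170, 178 and 192 RPKM with anti-IgM, and 311, 288 and 305 RPKM with LPS. As for *Bcl2*, each anti-IgM library lay below each resting and LPS library. Anti-IgM lowered *Mcl1* 1.59-fold in WT cells (log2 fold change −0.67, SE 0.09, edgeR adjusted p = 1.01e-05) and 1.60-fold in *Ubqln1*-/- cells (−0.68, SE 0.09, edgeR adjusted p = 8.61e-06). With LPS the log2 fold change was 0.11 in WT cells (95% interval −0.09 to 0.31, edgeR adjusted p = 0.32) and 0.07 in *Ubqln1*-/- cells (−0.13 to 0.27, edgeR adjusted p = 0.565). Without replicate 1 of the resting WT libraries, the WT value was 0.22 (edgeR adjusted p = 0.042).

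**Figure D2:**
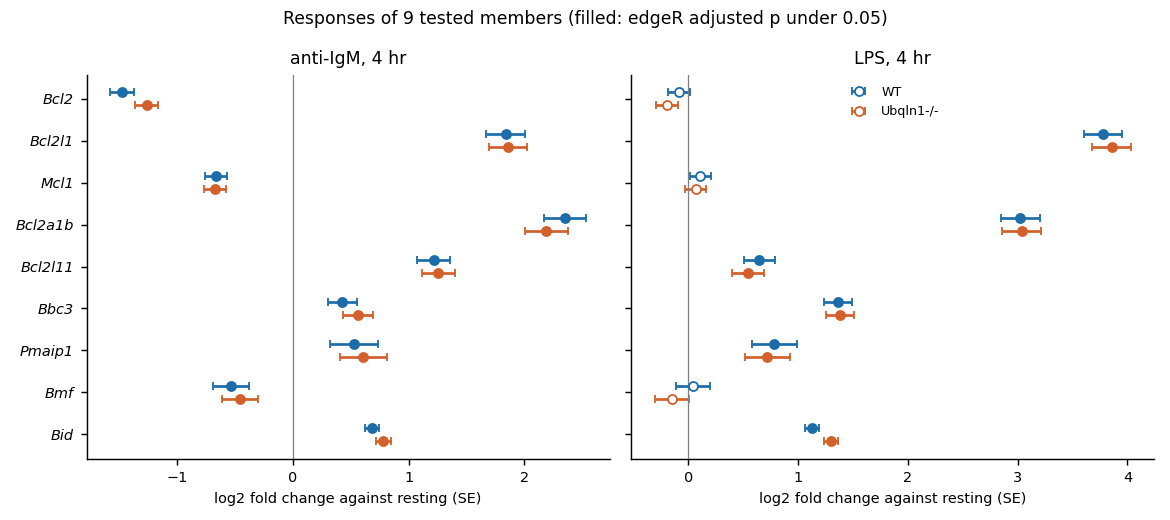
Log2 fold change against resting (horizontal axis, bars are SE) of the 9 tested members with anti-IgM (left) and LPS (right), WT in blue and Ubqln1-/- in orange. Filled points passed an edgeR adjusted p under 0.05. Bcl2 and Mcl1 lie left of 0 with anti-IgM (−1.48 and −0.67 in WT) and close to 0 with LPS (−0.08 and 0.11), while Bcl2l1 and Bcl2a1b lie to the right in both panels.

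*Bcl2l11*, at chr2:128126038-128162547, encodes BIM, which can bind every pro-survival member. Its levels in WT cells were 26.5, 33.3 and 34.3 RPKM at rest, 71.7, 80.3 and 66.6 RPKM with anti-IgM, and 37.0, 52.2 and 58.2 RPKM with LPS. The mutant cells held 25.8, 32.3 and 28.8 RPKM at rest, 68.3, 72.4 and 66.7 RPKM with anti-IgM, and 36.5, 45.0 and 45.1 RPKM with LPS. All anti-IgM libraries were above all LPS libraries, which in turn were above the resting ones. *Bcl2l11* was the member with the largest rise among the BH3-only genes after anti-IgM, 2.32-fold in WT and 2.39-fold in *Ubqln1*-/- cells (edgeR adjusted p = 1.27e-06 and 9.18e-07). LPS raised it 1.57-fold and 1.46-fold (edgeR adjusted p = 0.000855 and 0.00342). It was the 1 member called lower with LPS than with anti-IgM in each genotype, by log2 fold changes of −0.57 in WT and −0.71 in *Ubqln1*-/- cells (edgeR adjusted p = 0.00474 and 0.000895).

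*Bbc3* encodes PUMA, a BH3-only protein that p53 induces, and lies at chr7:16308398-16318334. WT cells held 7.73, 10.9 and 9.81 RPKM at rest, 11.4, 12.9 and 14.1 RPKM with anti-IgM, and 25.4, 25.4 and 22.7 RPKM with LPS. *Ubqln1*-/- cells held 7.86, 6.70 and 9.05 RPKM at rest, 11.1, 10.6 and 13.2 RPKM with anti-IgM, and 21.7, 19.8 and 20.1 RPKM with LPS. The order resting, anti-IgM, LPS held without overlap in both genotypes. LPS raised *Bbc3* 2.57-fold in WT and 2.60-fold in *Ubqln1*-/- cells (edgeR adjusted p = 1.37e-07 and 1.45e-07), and anti-IgM raised it 1.34-fold and 1.47-fold (edgeR adjusted p = 0.00741 and 0.00103).

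*Bid*, at chr6:120893119-120917062, links death receptors to mitochondria, since its protein is cut by caspase-8. In WT cells it was at 37.0, 39.5 and 36.5 RPKM at rest, 57.1, 63.5 and 60.9 RPKM with anti-IgM, and 82.2, 86.8 and 78.7 RPKM with LPS. The *Ubqln1*-/- libraries gave 35.0, 36.4 and 34.1 RPKM at rest, 57.7, 60.2 and 63.1 RPKM with anti-IgM, and 91.4, 88.9 and 79.2 RPKM with LPS. Here too the 3 conditions did not overlap, and *Bid* had the smallest SE of the members (0.06 in each comparison of 2 groups). LPS raised it 2.19-fold in WT and 2.46-fold in *Ubqln1*-/- cells (edgeR adjusted p = 1.69e-09 and 4.57e-10). Anti-IgM raised it 1.60-fold and 1.72-fold (edgeR adjusted p = 9.33e-08 and 2.26e-08). Of its 50-base windows, 16.4% also occur in transcripts of *Bcl2l13*.

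*Pmaip1* encodes NOXA, which binds MCL1 and A1 most tightly, and *Bmf* encodes a BH3-only protein that is held at the cytoskeleton. *Pmaip1* in WT cells was at 6.58, 10.4 and 13.1 RPKM at rest, 12.0, 13.4 and 18.2 RPKM with anti-IgM, and 13.7, 18.0 and 20.5 RPKM with LPS. In *Ubqln1*-/- cells it was at 8.39, 7.69 and 9.31 RPKM at rest, 14.1, 10.9 and 13.8 RPKM with anti-IgM, and 15.3, 12.8 and 13.8 RPKM with LPS. Resting and anti-IgM libraries overlapped in WT but not in *Ubqln1*-/- cells. LPS raised *Pmaip1* 1.72-fold in WT and 1.65-fold in *Ubqln1*-/- cells (edgeR adjusted p = 0.00315 and 0.00665), and anti-IgM raised it 1.44-fold and 1.53-fold (edgeR adjusted p = 0.0338 and 0.0162). The anti-IgM calls rested on single libraries. The WT log2 fold change of 0.53 became 0.30 without replicate 1 of the resting libraries, 0.56 without resting replicate 2 and 0.34 without replicate 3 of the anti-IgM libraries (edgeR adjusted p = 0.179, 0.0575 and 0.187), and it missed the threshold when only these 2 groups were fitted (edgeR adjusted p = 0.0847). In *Ubqln1*-/- cells the edgeR adjusted p was 0.0513 without replicate 1 of the anti-IgM and 0.0559 without replicate 2 of the resting libraries.

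*Bmf*, at chr2:118528757-118549686, was at 38.4, 39.4 and 28.8 RPKM in resting WT cells, 31.1, 22.2 and 20.2 RPKM with anti-IgM, and 41.8, 34.8 and 33.0 RPKM with LPS. *Ubqln1*-/- libraries gave 33.4, 34.5 and 37.2 RPKM at rest, 27.0, 22.2 and 27.2 RPKM with anti-IgM, and 29.2, 29.0 and 36.8 RPKM with LPS. WT resting replicate 3 lay below the highest anti-IgM library, and in *Ubqln1*-/- cells resting and anti-IgM did not overlap. Anti-IgM lowered *Bmf* 1.45-fold in WT and 1.38-fold in *Ubqln1*-/- cells (edgeR adjusted p = 0.00607 and 0.0151). The latter call was lost without replicate 2 of the anti-IgM libraries (log2 fold change −0.36, edgeR adjusted p = 0.0843) and without replicate 3 of the resting libraries (−0.41, edgeR adjusted p = 0.0506). With LPS the log2 fold changes were 0.04 in WT (95% interval −0.28 to 0.36, edgeR adjusted p = 0.832) and −0.15 in *Ubqln1*-/- cells (−0.47 to 0.18, edgeR adjusted p = 0.427).

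Set directly against anti-IgM, LPS left 7 of the 9 tested members higher and 1 lower in WT cells, where 17.4% of all tested genes were higher and 15.0% lower. For *Ubqln1*-/- cells the counts were 6 higher and 1 lower, where 16.8% of all tested genes were higher and 14.5% lower. At the study's thresholds 0 members were called in either direction, where 1.40% of all tested genes were higher and 1.11% lower in WT cells, and 1.21% and 1.02% in *Ubqln1*-/- cells. The 4 pro-survival members, *Bbc3* and *Bid* were higher with LPS in both genotypes. *Mcl1* was higher by 0.78 on the log2 scale in WT and 0.74 in *Ubqln1*-/- cells, *Bbc3* by 0.94 and 0.82, and *Bid* by 0.45 and 0.52 (largest edgeR adjusted p of the 6 values = 6.22e-05). *Bmf* was higher in WT cells by 0.58 on the log2 scale (edgeR adjusted p = 0.00804), a call that was lost without replicate 3 of the WT anti-IgM libraries (0.45, edgeR adjusted p = 0.0529), and its value in *Ubqln1*-/- cells was 0.31 (edgeR adjusted p = 0.141). *Pmaip1* differed by 0.26 in WT (95% interval −0.16 to 0.68) and 0.11 in *Ubqln1*-/- cells (−0.32 to 0.54), with edgeR adjusted p of 0.357 and 0.733.

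The order of the members by RPKM differed between conditions. *Mcl1* was first in all 6 groups and *Bik* last. At rest *Bid*, *Bmf* and *Bcl2l11* followed *Mcl1*, at 37.7, 35.5 and 31.4 RPKM in WT cells, where each overlapped its neighbour. *Bcl2* was 5th at rest with 12.3 ± 0.418 RPKM in WT cells (SD, n = 3) and 9th of the 10 in each stimulated group. *Bcl2l1* was 8th at rest, 5th with anti-IgM and 3rd with LPS in both genotypes, where its libraries overlapped those of *Bid*, and in WT cells those of *Bcl2l11* too. *Bcl2l11* was 4th at rest, 2nd with anti-IgM and 4th again with LPS. *Bcl2a1b*, 9th at rest, was 8th with anti-IgM and 7th with LPS, but it overlapped *Bbc3* with anti-IgM in both genotypes and with LPS in *Ubqln1*-/- cells, and *Pmaip1* with LPS in WT cells. Since 79.2% of its 50-base windows occur in other transcripts, its level against other genes, and so its rank and ratios, is uncertain.

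Ratios of RPKM within each library are given for 4 pairs of members, with no test. The ratio of *Bcl2l1* to *Bcl2* had a median of 0.491 in resting WT libraries (0.392 to 0.536), 4.53 after anti-IgM (4.09 to 5.69) and 7.52 after LPS (4.99 to 8.11). In *Ubqln1*-/- libraries the medians were 0.489, 4.73 and 8.26. So each resting library held less *Bcl2l1* than *Bcl2* and each stimulated library more. The ratio of *Mcl1* to *Bcl2l11* had medians of 7.92, 2.50 and 5.27 in resting, anti-IgM and LPS libraries of WT cells, and 9.71, 2.50 and 6.77 in *Ubqln1*-/- cells. The anti-IgM libraries, all between 2.08 and 2.88, stood below every other library for this ratio. The ratio of *Bcl2* to *Bcl2l11* was likewise lowest with anti-IgM, with WT medians of 0.372, 0.0656 and 0.224 and *Ubqln1*-/- medians of 0.370, 0.0670 and 0.218. *Bcl2l1* against *Bcl2l11* gave WT medians of 0.199, 0.274 and 1.82 and *Ubqln1*-/- medians of 0.203, 0.317 and 2.01, so this ratio was highest with LPS. These patterns depend on the pair. Over all 20 ratios of a pro-survival to a tested BH3-only member, the median was lowest at rest in 10, lowest with anti-IgM in 9 and lowest with LPS in 1, in WT and again in *Ubqln1*-/- cells. All ratios with *Bcl2l1* or *Bcl2a1b* on top were lowest at rest, and those with *Bcl2* on top were lowest with anti-IgM. *Mcl1* over *Bbc3* was the ratio lowest with LPS, with WT medians of 24.2 at rest, 12.9 with anti-IgM and 11.9 with LPS.

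**Figure D3:**
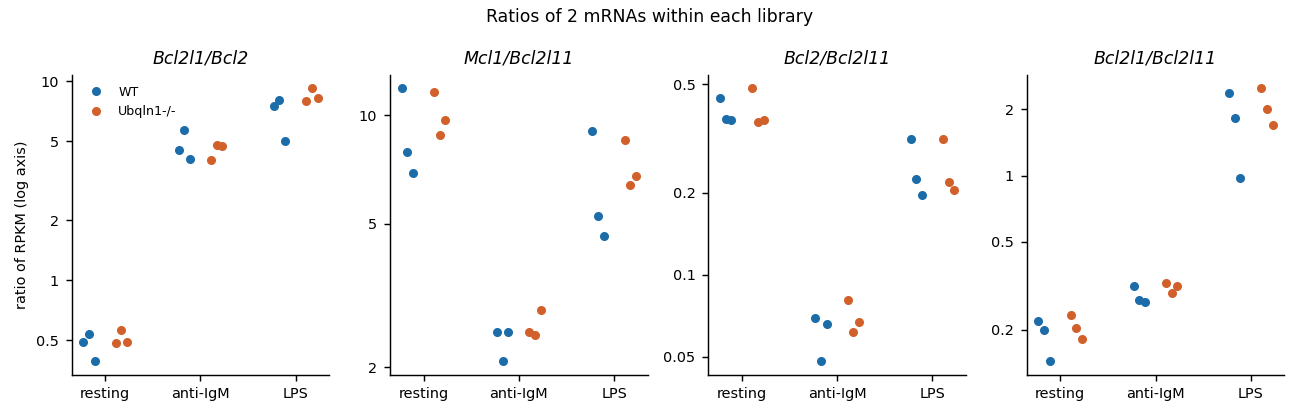
Ratio of 2 members' RPKM within each library (points, log axis) by condition, WT in blue and Ubqln1-/- in orange. Bcl2l1 over Bcl2 goes from a WT median of 0.491 at rest to 4.53 with anti-IgM and 7.52 with LPS, and Mcl1 over Bcl2l11 is lowest with anti-IgM at 2.50.

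Between genotypes, 0 of the 9 tested members were called in any condition, where 0.0212% of all tested genes were higher and 0.0353% lower in resting *Ubqln1*-/- cells, 0.0847% and 0.0141% with anti-IgM, and 0.0141% and 0.0282% with LPS. The number of members with an unadjusted edgeR p under 0.05 was 1 at rest, 0 with anti-IgM and 1 with LPS, and limma-voom and DESeq2 also called 0. Both of these values belonged to *Bbc3*. With the replicate number as a block the counts were 1, 0 and 3, still with 0 called (lowest edgeR adjusted p = 0.403). The share of all tested genes under an unadjusted p of 0.05 was not counted. Such counts, here and below, therefore have no background beside them. At rest the replicate numbers are not taken as a pairing between genotypes. The 3 members with LPS were *Bcl2*, *Bcl2l11* and *Bbc3*, each lower in *Ubqln1*-/- cells. Their blocked log2 fold changes were −0.19, −0.21 and −0.26. Without the block, the log2 fold change of *Bbc3* was −0.28 at rest (95% interval from −0.55 to just under 0) and −0.26 with LPS (−0.51 to just under 0), where the *Ubqln1*-/- libraries (19.8 to 21.7 RPKM) lay below the WT ones (22.7 to 25.4 RPKM). *Pmaip1* had the largest value, −0.32 with LPS, with an interval of −0.74 to 0.11. The intervals of the pro-survival members, also without the block, were narrower for *Mcl1* (−0.11 to 0.28 at rest, −0.12 to 0.28 after anti-IgM and −0.16 to 0.24 after LPS) than for *Bcl2l1* (−0.35 to 0.41, −0.28 to 0.37 and −0.21 to 0.42). For *Bcl2* they ran from −0.29 to 0.13 at rest, −0.09 to 0.35 after anti-IgM and −0.40 to 0.02 after LPS. *Bid* was bounded most tightly, with −0.14 to 0.13 in anti-IgM cells. The block made the SE of the genotype difference with LPS smaller. It was 0.084 for *Bcl2l1* and 0.075 for *Mcl1*, against 0.148 and 0.094 without the block.

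**Figure D4:**
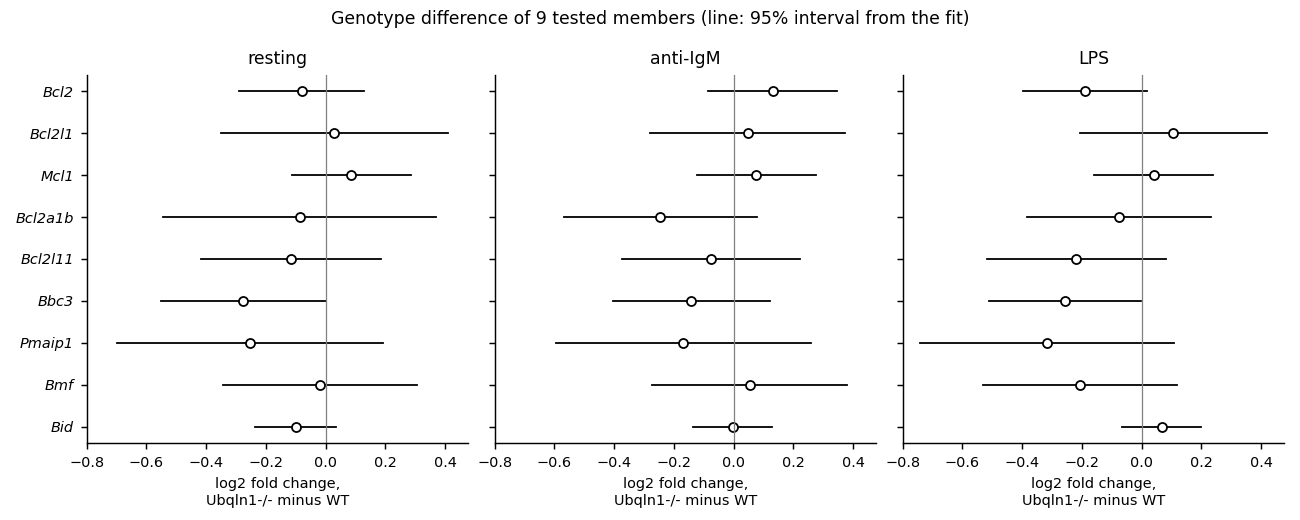
Log2 fold change of Ubqln1-/- minus WT (horizontal axis, lines are 95% intervals of the edgeR fit without the block) for the 9 tested members in resting, anti-IgM and LPS cells. All points lie between −0.32 and 0.13, and only the Bbc3 intervals at rest and with LPS end just below 0.

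Whether the response to a stimulus differed between genotypes was tested with an interaction term. It called 0 of the 9 tested members for anti-IgM and 0 for LPS, with 0% of all tested genes called in either direction, and 0 members had an unadjusted edgeR p under 0.05 for either stimulus (with the block 0 for anti-IgM and 1, *Bid*, for LPS). limma-voom and DESeq2 also called 0. For *Bcl2* the fall with anti-IgM was smaller in *Ubqln1*-/- cells by 0.21 on the log2 scale (95% interval −0.09 to 0.51). The rise of *Bid* with LPS was larger in them by 0.17 (−0.02 to 0.36). For *Bcl2l1* the differences were 0.02 for anti-IgM (−0.48 to 0.52) and 0.08 for LPS (−0.41 to 0.57).

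The genes whose log2 CPM (counts scaled to library size) followed a member most closely over the 18 libraries are given as a description, since all share the same libraries and large differences between stimuli. For *Bcl2l1* the nearest were *Swap70*, *Cdk5r1* and *Tnfaip3* (Pearson r = 0.998, 0.996 and 0.994). For *Bcl2a1b* they were *Cd83*, *Marcksl1* and *Nfkbib* (r = 0.993, 0.990 and 0.989), and for *Bid* *Sephs2*, *Tnfaip3* and *Nup62* (r = 0.991, 0.990 and 0.990). *Bcl2* was followed by *Dhx40*, *Ldlrad4* and *Rasgrp3* (r = 0.984, 0.984 and 0.980), and *Bcl2l11* by *Tent5c*, *Mreg* and *Mafg* (r = 0.979, 0.979 and 0.975).

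*Bax* and *Bak1* encode the pore formers on which the members act. *Bax* was at 113 ± 13.7 RPKM in resting WT cells, 182 ± 8.53 with anti-IgM and 148 ± 14.9 with LPS (SD, n = 3), and it rose by 0.69 on the log2 scale with anti-IgM and 0.38 with LPS (edgeR adjusted p = 3.21e-06 and 0.00118). It rose by 0.72 and 0.50 in *Ubqln1*-/- cells (edgeR adjusted p = 1.95e-06 and 0.000125). *Bak1* had group means of 24.7 to 27.4 RPKM and was not called, with log2 fold changes of 0.10 for anti-IgM and 0.04 for LPS in both genotypes. Of the 16 other family genes listed, 12 were tested. Where 30.1% to 32.9% of all tested genes were called in each direction, each stimulus called 4 of the 12 higher and 5 lower in each genotype. Apart from the *Bcl2a1* copies, 1 passed a log2 fold change of 1 with the same sign in both genotypes. This was *Bnip3*, a BH3-containing gene known for hypoxia and mitophagy, at −1.02 in WT and −1.43 in *Ubqln1*-/- cells with LPS (edgeR adjusted p = 0.000112 and 7.88e-06).

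Caspases and their regulators act downstream of the mitochondrion. Of 13 tested genes, anti-IgM raised 3 and lowered 8 in WT cells and raised 2 and lowered 8 in *Ubqln1*-/- cells, and LPS raised 5 and lowered 6, and 4 and 6. Their median log2 fold change was −0.55 in WT and −0.53 in *Ubqln1*-/- cells with anti-IgM, and 0.03 and −0.02 with LPS, beside medians of all tested genes of −0.02 to −0.01. The shares of all tested genes called in each direction, given above, were 30.1% to 32.9%. *Casp9*, the initiator caspase of the apoptosome, fell by 1.41 on the log2 scale with anti-IgM and by 1.38 with LPS in WT cells (edgeR adjusted p = 2.33e-08 and 5.12e-08). *Apaf1*, its scaffold, fell by 1.03 with anti-IgM (edgeR adjusted p = 2.48e-07). *Cycs*, cytochrome c, rose by 1.59 and 1.49 (edgeR adjusted p = 0.000194 and 0.000367), but on 6 to 63 reads per library. Windows that *Cycs* shares with other genes were not counted, so its level is uncertain.

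Of 11 tested death receptor genes, anti-IgM raised 2 and lowered 3 in WT cells (1 and 2 in *Ubqln1*-/- cells), and LPS raised 4 and lowered 3 in each genotype. Among all tested genes, 30.1% to 32.9% were called in each direction. *Fas*, the receptor for FAS ligand, rose with LPS by 2.25 on the log2 scale in WT and 2.24 in *Ubqln1*-/- cells (edgeR adjusted p = 1.8e-08 and 1.58e-08). *Cflar*, which encodes the caspase-8 inhibitor c-FLIP, rose with LPS by 1.29 and 1.21 (edgeR adjusted p = 4.09e-08 and 7.85e-08). *Casp8* itself fell with anti-IgM by 1.22 and 1.20 (edgeR adjusted p = 1.29e-09 and 1.51e-09).

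*Bbc3* and *Pmaip1* are known p53 targets but are not counted in the p53 list that follows. Of its 12 tested genes, anti-IgM raised 3 and lowered 6 in WT cells (3 and 5 in *Ubqln1*-/- cells), and LPS raised 4 and lowered 3 (3 and 3). The shares of all tested genes called in each direction were again 30.1% to 32.9%. Within this list *Aen* and *Sesn2* rose with both stimuli, by 1.33 and 1.41 on the log2 scale with anti-IgM and by 1.35 and 1.43 with LPS in WT cells (largest edgeR adjusted p = 7.22e-05). *Sesn1* fell by 1.42 and 1.17 (edgeR adjusted p = 1.84e-10 and 2.93e-09), and *Trp53inp1* fell with LPS by 1.44 (edgeR adjusted p = 1.78e-07). Across these 4 lists, 0 genes were called by edgeR between genotypes in any condition, with 0 to 2 genes of a list at an unadjusted p under 0.05.

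**Figure D5:**
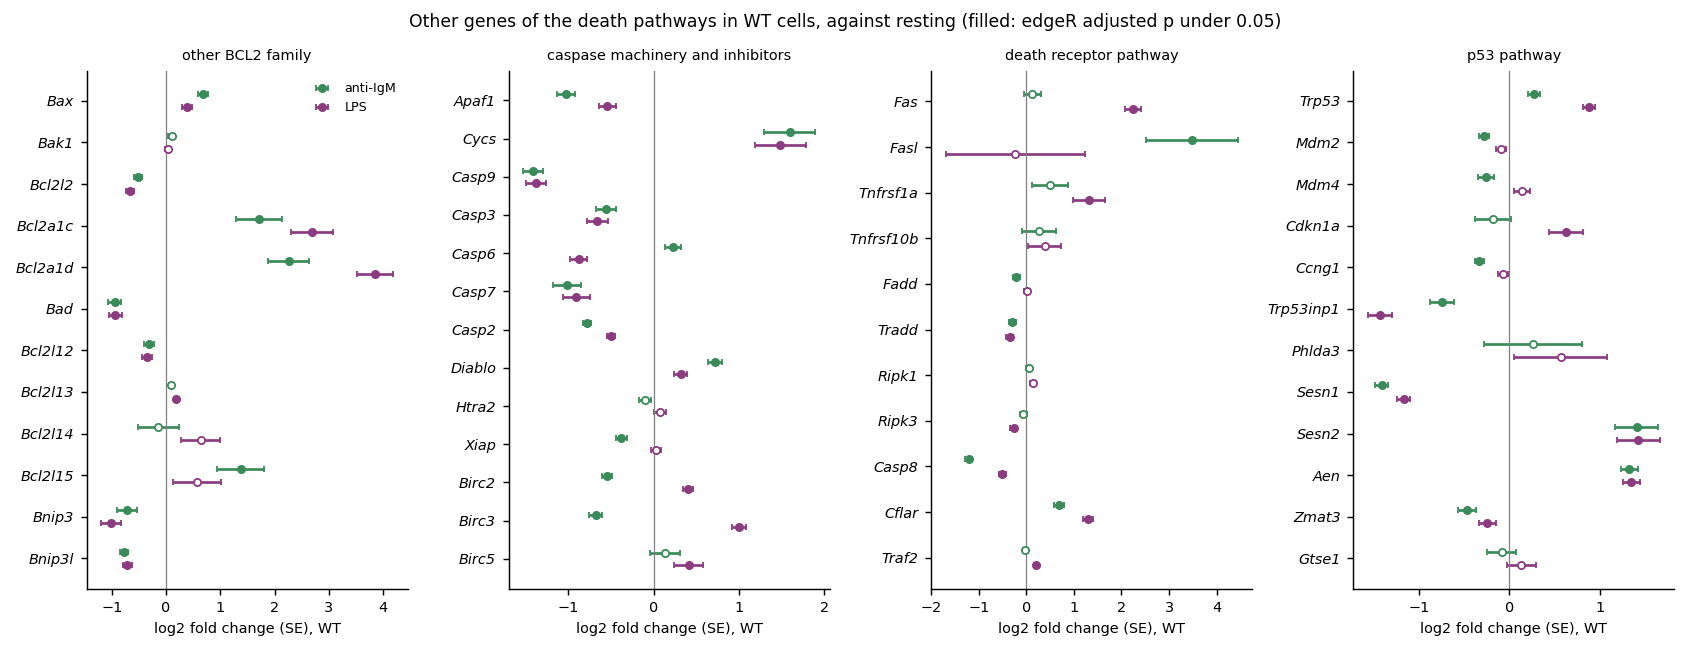
Log2 fold change against resting in WT cells (horizontal axis, bars are SE) for the tested genes of 4 lists, anti-IgM in green and LPS in purple. Filled points passed an edgeR adjusted p under 0.05. Casp9 lies at −1.41 and −1.38, while Fas is far right of 0 with LPS (2.25) and near 0 with anti-IgM (0.12).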

How the data were processed

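RNA of 18 splenic B cell samples was sequenced from TruSeq v2 libraries, which do not mark strand, as single-end 50 base reads. The authors aligned the reads to GRCm38 with GSNAP and deposited, for each Entrez gene, a count of reads over its exons without normalization, an RPKM value and the gene width. The counting program and annotation release are not given in the sources used here. One item of the B cell marker list is not reported here. Gene names and positions came from RefSeq (GRCm38.p6), which named 25035 (89.1%) of 28096 genes, holding at least 95.76% of each library's counts.

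The deposited counts were fitted with edgeR 4.0.16 (TMM factors 0.958 to 1.04, filterByExpr, quasi-likelihood test) in R 4.3.3, over all 18 samples 1 term per group and without a replicate block, following the single-term limma models of the study. SE is the log2 fold change divided by the square root of F. RPKM in the text was computed from the count, the width and the TMM-scaled library size. Intervals come from the same fit. The scripts were tested on simulated data.

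Replicates called 1 carry no number in the labels and were numbered by elimination. Samples with the same number deviated together (mean r 0.266 over 45 pairs, 43 above 0.1). Both exceptions, 0.055 and 0.0826, set resting WT against *Ubqln1*-/- cells, so the numbers count as a pairing for all other comparisons. The mean r of −0.132 for different numbers largely follows from subtracting each group's mean and is no separate support. The block was fitted for every comparison, resting genotypes included, and is given as an alternative beside the main fit without it.

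The members and gene lists were chosen with earlier results of these data known. All members are named. From the other lists come the genes called in both genotypes with a log2 fold change over 1 in the same direction, at most 5 a list, with *Bax*, *Bak1* and the *Bcl2a1* copies, and the 3 genes most correlated with a member. Alternatives were limma 3.58.1 with voom, DESeq2 1.42.0, RLE normalization, other filters, the block, only the groups compared, the study's thresholds, and leaving out each sample. Windows shared with other genes were counted in GENCODE M21 transcripts. *Bcl2l1*, *Bcl2*, *Bcl2l11*, *Bik* and *Bid* overlap other annotated genes, and counts of these cannot be told apart by strand.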

Additional observations from a re-analysis of the deposited data

How the results depend on the processing

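The counts of called members were the same under limma-voom, DESeq2, RLE normalization, both other filters and fits of only the groups compared, except that *Pmaip1* with anti-IgM in WT cells missed the threshold in the last of these. Under the thresholds of the study, which ask for a log2 fold change over 2, anti-IgM minus resting had 1 member higher and 0 lower in each genotype, LPS minus resting had 2 higher in each, and LPS minus anti-IgM had 0 higher and 0 lower in each. With the replicate block, LPS minus resting in *Ubqln1*-/- cells had 1 member lower in place of 0, *Bcl2*, and no other call changed. Leaving out each sample in turn, that count was 0 to 1. Over 702 such values of members, 8 lost and 2 gained a call, all given in the report. Summing the *Bcl2a1* copies changed no call. Of 1406 alternative values for 99 results, 60 differed in sign, none of them called. Deposited RPKM was 0.837 to 0.893 of the RPKM printed here, and the cause was not tested. Members with few reads (*Bcl2a1b* at rest, *Bik*) are limited by depth.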
